A study of Mus musculus with 12 samples.

Results

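The genes followed, 7 in number, belong to the hepatic acute phase response: the secreted acute phase proteins Saa1, Saa2, Orm2, Hp and Lcn2, the transcription factor Stat3, and Socs3, the inhibitor that STAT3 switches on. All peaks that the deposited table annotates to one of these symbols were taken. They came to 19 of 37118 peaks, and 7 of 7 genes had at least 1. The RNA came from livers of wild-type male C57BL/6 mice, 6 to 8 weeks old when housed. Cadmium mice received CdCl2 at 20 mg/kg/day by gavage and control mice 0 mg/kg/day, both for 90 days, with 6 animals per group and 3 samples per group. The samples were profiled by MeRIP-seq, which sequences RNA fragments pulled down by an antibody to m6A (N6-methyladenosine), a chemical mark that cells place on adenosines. A value here is the number of reads in an m6A peak, and it can differ through the amount of a gene's RNA, through its methylated share, or through both, since input counts were not used here.

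The acute phase response is the switch in the set of proteins that hepatocytes secrete during infection or tissue injury. Interleukin-6 binds its receptor with the shared chain gp130, JAK kinases phosphorylate STAT3, and STAT3, with C/EBP factors and NF-kB, drives the acute phase genes. SOCS3 is made in response to STAT3 and blocks gp130 signalling, which closes the loop. STAT3 itself is controlled mainly by phosphorylation, which read counts do not show.

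Counts in peaks totalled 40174736 to 51205200 in cadmium samples and 46474259 to 52338612 in control samples. Levels are CPM, counts scaled to a common library size, and a peak was called when its adjusted p from edgeR's quasi-likelihood test over all 37088 tested peaks was below 0.05. Of the tested peaks, 6.27% were called in either direction, and 3.55% were called higher in cadmium livers. The groups stood apart on the first principal component, with 45.6% of the variance. Between 4.95% and 19.7% of a sample's counts fell in peaks of Gm12895 and Gm12896, which are predicted genes, and leaving them out changed no call among the 19 peaks. The tissue label held in the marker genes: hepatocyte markers were measured at 10 of 10 genes, with summed levels of 15520 to 17280 CPM in cadmium and 17210 to 19910 CPM in control samples.

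All 19 peaks were tested. Of these, 6, both peaks of Saa1 and the 4 of Saa2, were called, each higher in cadmium, and 0 were called lower. The log2 change was above 0 at 16 of 19 peaks, with a median of 1.05, against a median of -0.00 and 49.6% above 0 over all tested peaks. The lowest cadmium value lay above the highest control value at 8 of the 19 peaks, namely the 6 Saa peaks and 2 of the 4 Orm2 peaks, against 14.4% of all tested peaks. With counts summed over a gene's peaks, 2 of the 7 genes, Saa1 and Saa2, were called higher, against 5.53% of 12645 genes tested that way. Summed counts were scaled separately, over annotated peaks only, so summed levels differ slightly from the sum of the peak levels. The labels do not say that each sample is a separate mouse, so the p-values measure only the spread between these samples. The peaks of 1 gene share its RNA and are not independent of each other. The genes were chosen with earlier results of these data known, so the contrasts with all peaks are description only.

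**Figure D1:**
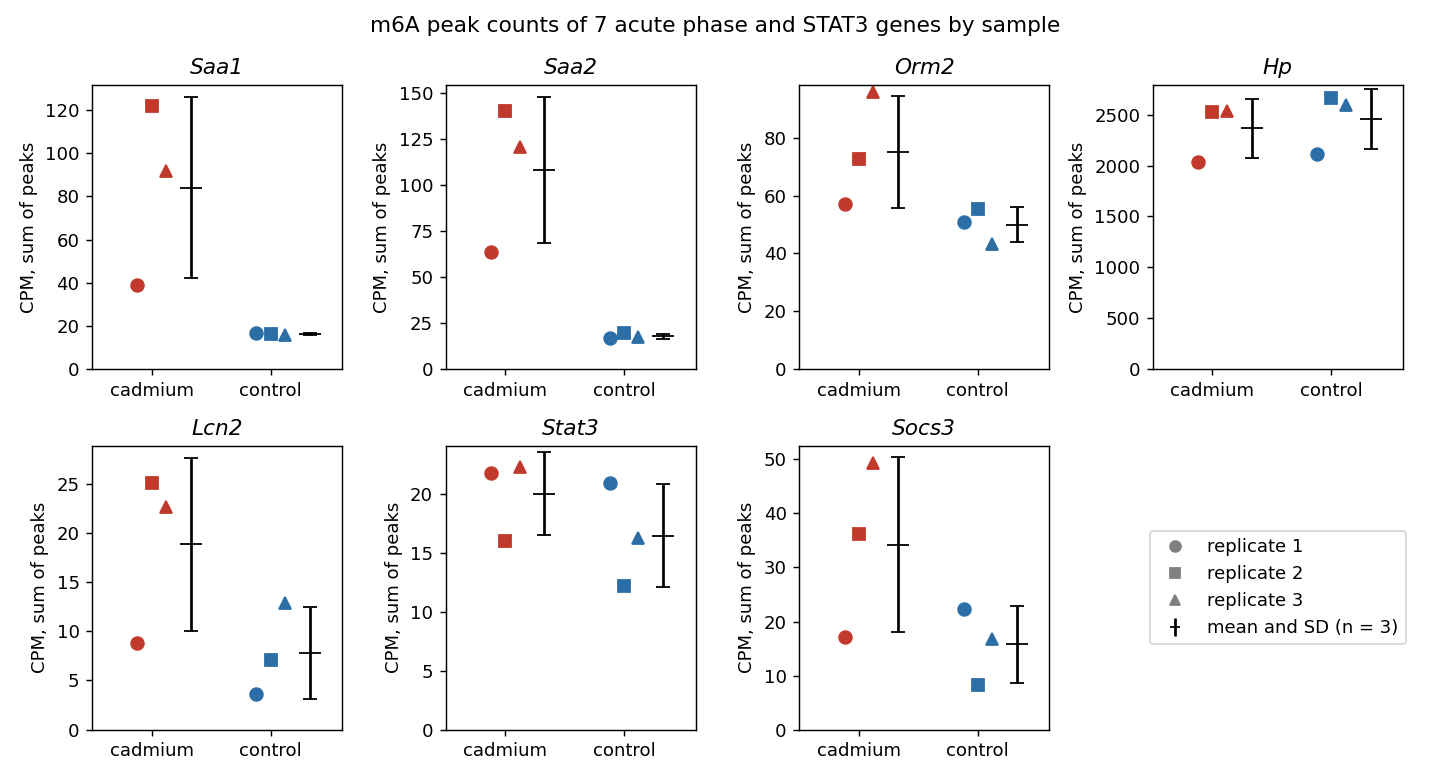
Summed peak level of each gene (vertical axes, CPM, each from 0) in 3 cadmium (red, left) and 3 control samples (blue, right), with a marker shape per replicate and the mean ± SD beside the points. Cadmium and control points are apart in the panels of Saa1, Saa2 and Orm2, and overlap in those of Hp, Lcn2, Stat3 and Socs3.

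Saa1 and Saa2 encode serum amyloid A proteins, small apolipoproteins of high-density lipoprotein that are among the most inducible acute phase proteins of the mouse. Their RefSeq start sites on chromosome 7 lie 8853 bp apart on opposite strands. The 250 bases before each start, printed here because the genes moved together, were identical at 238 of 251 aligned columns, which is 94.8%. Other pairs among the 6 genes with a promoter in the RefSeq table (GRCm38.p6) reached 48.5% to 54.8%. Each Saa promoter holds a match to TTGCNNAA, a form of the C/EBP element, searched on both strands and shown in capitals. It lies 182 to 175 bases before the start of Saa1 and 183 to 176 bases before that of Saa2. Of all 32851 promoters of the same length, 9.56% hold a match. Neither holds TTCNNNGAA, the STAT element, found in 7.02% of promoters, or GGANTTTCC, a form of the NF-kB element, found in 1.07%. Other forms of these elements were not searched. The motifs do not overlap each other in these promoters, and a match is a run of letters, not a measured binding site. The promoter table takes 1 start site per gene, and for Saa1, Stat3 and Socs3 the RefSeq gene used below for peak positions begins 201, 54 and 970 bases further upstream. The first sequence is chr7:46742981-46743230 on the minus strand and the second chr7:46751583-46751832 on the plus strand, both 5′ to 3′.
Saa1: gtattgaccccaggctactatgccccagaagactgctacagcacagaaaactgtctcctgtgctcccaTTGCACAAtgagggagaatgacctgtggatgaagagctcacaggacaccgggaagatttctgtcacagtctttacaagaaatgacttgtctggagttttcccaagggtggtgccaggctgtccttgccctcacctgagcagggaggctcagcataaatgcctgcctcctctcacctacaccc
Saa2: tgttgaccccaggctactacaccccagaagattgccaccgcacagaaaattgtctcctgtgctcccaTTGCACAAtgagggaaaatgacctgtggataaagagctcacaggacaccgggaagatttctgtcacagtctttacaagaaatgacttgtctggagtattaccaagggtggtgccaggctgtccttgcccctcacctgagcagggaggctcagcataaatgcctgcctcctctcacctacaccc

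The Saa genes were higher in cadmium livers, at every peak and in every cadmium sample. Summed over its 4 peaks, Saa2 had 63.5, 140 and 120 CPM in cadmium replicates 1, 2 and 3, against 16.6, 19.2 and 17.4 CPM in control replicates 1, 2 and 3. The groups do not overlap, and the lowest cadmium sample is still above every control sample. The fold was 6.09 (95% interval 4.07 to 9.09), with a log2 change of 2.61 (SE 0.259) and an adjusted p of 0.00128. Summed over its 2 peaks, Saa1 had 38.8, 122 and 91.6 CPM in cadmium replicates 1, 2 and 3, against 16.7, 16.1 and 15.7 CPM in the control replicates. Cadmium replicate 1 is again the lowest of its group, and the 3 control values are close to each other. The fold was 5.21 (95% interval 3.08 to 8.8), with a log2 change of 2.38 (SE 0.338) and an adjusted p of 0.00443. Spread differed between the groups: the coefficient of variation of Saa1 was 50% in cadmium and 2.95% in control samples, and that of Saa2 was 36.7% in cadmium and 7.66% in control samples. In whole-liver RNA, a change in the number of cells of a type and a change in RNA per cell cannot be told apart.

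Taken singly, the 4 Saa2 peaks were each higher in cadmium livers. Peaks are numbered by coordinate, on mm10 as deposited. Saa2 peak 3 (chr7:46753359-46753640) had 24.3, 54.0 and 47.2 CPM in cadmium replicates, against 5.97, 7.17 and 6.50 CPM in control replicates, with a log2 change of 2.68 (SE 0.271, adjusted p = 0.00106). Peak 4 (chr7:46753938-46754273), near the end of the gene, had 21.2, 57.1 and 45.9 CPM in cadmium and 6.34, 7.09 and 5.69 CPM in control replicates, with a log2 change of 2.7 (SE 0.311, adjusted p = 0.00152). In both peaks cadmium replicate 2 is highest, and cadmium replicate 1, the lowest of its group, is above every control sample. Peak 2 (chr7:46752308-46752475) averaged 17.8 ± 5.03 CPM in cadmium and 3.04 ± 0.654 CPM in control samples (SD, n = 3). Peak 1 (chr7:46751853-46751958), the smallest and nearest to the start, averaged 5.55 ± 1.54 CPM in cadmium and 1.25 ± 0.109 CPM in control samples, with a log2 change of 2.15 (SE 0.248, adjusted p = 0.00152).

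Saa1 carried most of its counts in 1 peak near its end (peak 1, chr7:46740617-46740873, 83.3% of the gene's summed level). It had 30.1, 103 and 75.4 CPM in cadmium replicates, against 12.7, 12.7 and 12.6 CPM in control replicates, with a log2 change of 2.46 (SE 0.354, adjusted p = 0.00408). The second peak (chr7:46742370-46742503) had 7.35, 17.9 and 15.5 CPM in cadmium replicates and 3.08, 3.15 and 2.72 CPM in control replicates, a 4.55-fold difference. Cadmium replicate 2 is the highest at both, as in Saa2. The 6 Saa peaks were called under each of 12 other settings, leaving out each sample in turn included. Saa genes are close copies, and the sources used here do not say how reads matching more than 1 place were counted, so the split between Saa1 and Saa2 is uncertain.

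**Figure D2:**
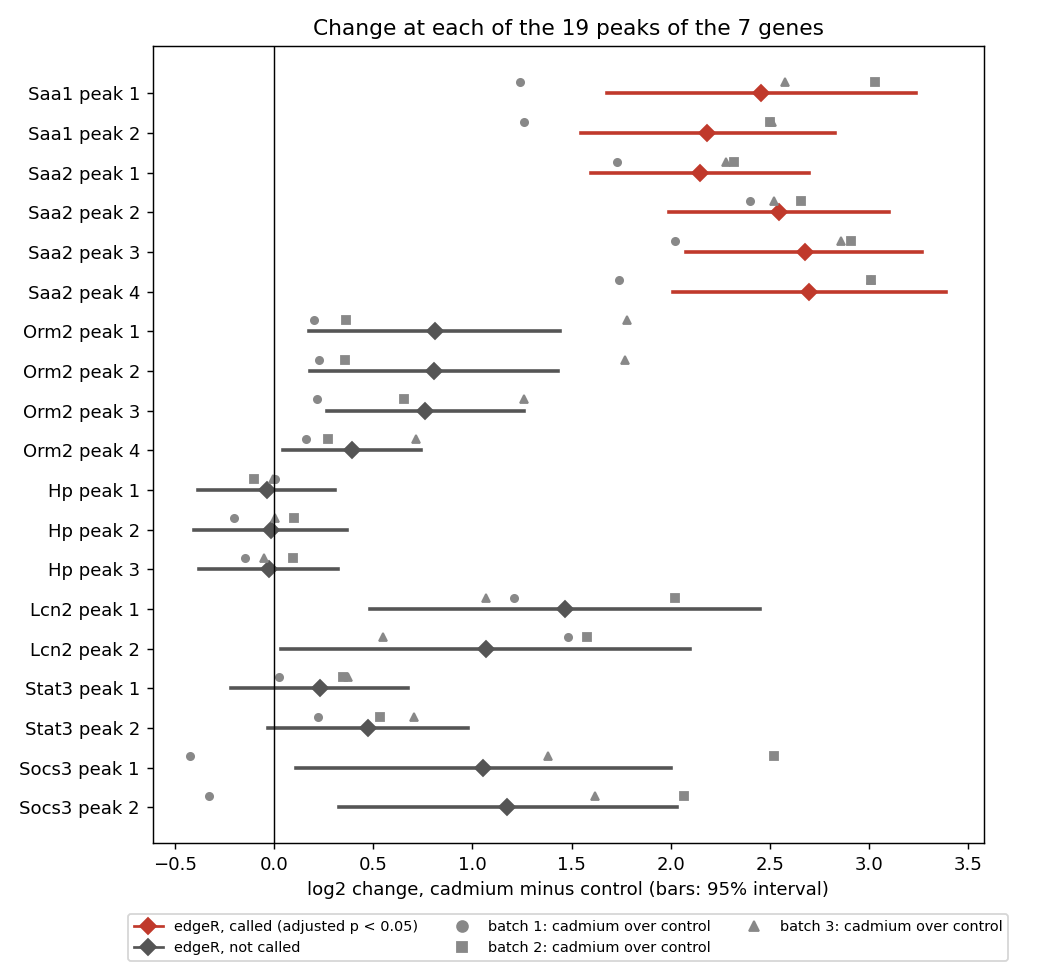
Log2 change (horizontal axis, cadmium minus control) at the 19 peaks, with diamonds and bars for the edgeR estimate and its 95% interval, red where called, and grey symbols for cadmium over control within batches 1, 2 and 3. The Saa peaks lie from 2.15 to 2.7, those of Hp lie near 0, and both Socs3 peaks have batch 1 below 0 and batches 2 and 3 above 1.

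Orm2 encodes orosomucoid (alpha-1-acid glycoprotein), a plasma protein that binds drugs and other small molecules. Its promoter is shown because it also holds the C/EBP letters, TTGCGCAA, which read the same on both strands, 120 to 113 bases before the start (chr4:63362199-63362448, plus strand, RefSeq, GRCm38.p6).
Orm2: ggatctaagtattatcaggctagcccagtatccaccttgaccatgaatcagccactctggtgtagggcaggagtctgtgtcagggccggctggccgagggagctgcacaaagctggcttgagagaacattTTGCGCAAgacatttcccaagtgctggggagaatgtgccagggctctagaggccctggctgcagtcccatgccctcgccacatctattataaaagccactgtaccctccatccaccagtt

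No Orm2 peak was called. Summed over 4 peaks it had 57.1, 72.6 and 95.7 CPM in cadmium replicates, against 51.0, 55.4 and 43.4 CPM in control replicates. The groups do not overlap, but cadmium replicate 1 and control replicate 2 lie close. The fold was 1.5 (95% interval 1.13 to 2.01, adjusted p = 0.0776). Peak 3 (chr4:63364007-63364334) came nearest to the threshold: it had 13.8, 21.6 and 26.8 CPM in cadmium replicates and 11.8, 13.7 and 11.2 CPM in control replicates, with a log2 change of 0.76 (SE 0.225, adjusted p = 0.0732). Cadmium replicate 3 is the highest and replicate 1 the lowest of their group. Without cadmium replicate 1 the log2 change of this peak was 0.99 with an adjusted p of 0.0189, and DESeq2 gave an adjusted p of 0.0192. DESeq2 also called peaks 1 and 2, with adjusted p of 0.0477 and 0.0465. Peaks 1 and 2 (log2 changes 0.81 and 0.81) each had a control sample above the lowest cadmium sample. Peak 4 (chr4:63365624-63365855), at the end of the gene, had 26.4, 28.4 and 35.5 CPM in cadmium replicates and 23.6, 23.6 and 21.6 CPM in control replicates, with a log2 change of 0.39 (SE 0.159, adjusted p = 0.179). These groups do not overlap, though the change missed the threshold. The related genes Orm1 and Orm3, which may share reads with Orm2, had log2 changes of 0.35 (adjusted p = 0.237) and 0.65 (adjusted p = 0.104) at their highest-level peaks.

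Hp encodes haptoglobin, the plasma protein that binds free haemoglobin and an abundant acute phase protein. It was not called, and its level was the highest of the 7. The main peak (chr8:109575156-109576038) had 1582, 1981 and 1982 CPM in cadmium replicates, against 1576, 2128 and 1992 CPM in control replicates. The groups overlap over nearly their whole range, and replicate 1 is the lowest in both. The log2 change was -0.04 (SE 0.156, 95% interval -0.38 to 0.30, adjusted p = 0.914). The smaller peaks 2 and 3 were at -0.02 (adjusted p = 0.963) and -0.03 (adjusted p = 0.941). Summed over 3 peaks, the fold was 0.962 with a 95% interval of 0.769 to 1.2. The sign of this change was positive without cadmium replicate 1 (0.058) and without control replicate 2 (0.011).

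Lcn2 encodes lipocalin-2, which binds bacterial siderophores that carry iron and is strongly induced in hepatocytes by interleukin-6. Its peak near the end of the gene (peak 1, chr2:32384680-32384862) had 4.75, 15.6 and 13.5 CPM in cadmium replicates, against 2.06, 3.84 and 6.41 CPM in control replicates. Cadmium replicate 1 lies below control replicate 3, so the groups overlap. The log2 change was 1.47 (SE 0.445, 95% interval 0.48 to 2.45) and missed the threshold with an adjusted p of 0.0798. The peak near the start (peak 2, chr2:32387560-32387705) had 3.76, 9.33 and 8.99 CPM in cadmium replicates and 1.34, 3.13 and 6.14 CPM in control replicates, with a log2 change of 1.07 (SE 0.468, adjusted p = 0.214). Leaving out 1 sample gave 0.67 (without control replicate 1) to 1.72 (without control replicate 3) at peak 2. Each cadmium sample was above the control sample of its own batch, by log2 differences of 1.21, 2.02 and 1.07 at peak 1 and 1.48, 1.58 and 0.55 at peak 2. With the replicate as a block, both peaks were called: 1.44 (SE 0.208, adjusted p = 0.00752) at peak 1 and 1.18 (SE 0.227, adjusted p = 0.0198) at peak 2. Peak 1 was also called without cadmium replicate 1 (1.84, adjusted p = 0.0276), while DESeq2 in its unblocked fit gave an adjusted p of 0.158. The Lcn2 promoter holds the C/EBP letters TTGCTCAA 216 to 209 bases before its start. Lcn2 is also a product of neutrophils, and 0 of the 13 neutrophil markers listed, S100a8, S100a9, Ly6g and Mpo among them, had a peak in the table. A gene without an m6A peak can still be expressed, so this does not show that the cells were absent. The part of neutrophils in the Lcn2 values was not tested.

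Stat3, the transcription factor at the centre of the pathway, was not called at either of its peaks. Peak 1 (chr11:100904868-100905111) had 14.2, 10.9 and 14.6 CPM in cadmium replicates, against 14.0, 8.54 and 11.2 CPM in control replicates. The groups overlap, and replicate 2 is the lowest in both. The log2 change was 0.23 (SE 0.202, 95% interval -0.22 to 0.68, adjusted p = 0.559). Peak 2 (chr11:100905684-100905813) had 6.88, 5.05 and 7.57 CPM in cadmium replicates and 5.91, 3.49 and 4.64 CPM in control replicates, with a log2 change of 0.47 (SE 0.229, adjusted p = 0.261). The Stat3 promoter holds none of the 3 motifs in this window.

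Socs3 is a classic STAT3 target and the feedback inhibitor of gp130. Its promoter, shown for that reason, was the only one of the 6 with the STAT letters, TTCTTAGAA, 154 to 146 bases before the start site in the promoter table (chr11:117969367-117969616, minus strand, RefSeq, GRCm38.p6). This window lies wholly inside the longer RefSeq gene, which has a start further upstream.
Socs3: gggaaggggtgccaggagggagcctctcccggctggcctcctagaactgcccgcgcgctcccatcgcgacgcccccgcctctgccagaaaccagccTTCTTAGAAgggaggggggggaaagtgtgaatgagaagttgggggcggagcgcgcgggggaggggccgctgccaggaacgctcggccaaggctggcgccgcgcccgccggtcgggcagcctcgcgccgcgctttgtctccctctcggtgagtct

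Socs3 was not called, and its samples spread widely in both groups. Over its summed peaks the coefficient of variation was 47.3% in cadmium and 44.9% in control samples. Peak 2 (chr11:117966741-117968075) had 13.3, 29.3 and 40.8 CPM in cadmium replicates, against 16.7, 6.95 and 13.3 CPM in control replicates. Cadmium replicate 1 lies within the control range, and cadmium replicates 2 and 3 lie above it. The log2 change was 1.18 (SE 0.386, 95% interval 0.33 to 2.03, adjusted p = 0.102). Within batches it was -0.33, 2.07 and 1.62. Without cadmium replicate 1 it was 1.51 with an adjusted p of 0.0351. Peak 1 (chr11:117966222-117966589) had 3.31, 6.62 and 8.12 CPM in cadmium replicates and 4.44, 1.16 and 3.13 CPM in control replicates, with a log2 change of 1.05 (SE 0.428, adjusted p = 0.182).

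Cadmium replicate 1 was the lowest of its group at 17 of the 19 peaks, against 37.8% of all tested peaks. It was the highest at 0, against 38.7% of all tested peaks. It had the fewest counts in peaks of the 6 samples. Cadmium replicate 3 was the highest of its group at 11 peaks and replicate 2 at 8, against 26.9% and 34.5% of all tested peaks. The 19 peaks come from 7 genes, and peaks of 1 gene share its RNA, so these are not 19 separate cases. The part of sequencing depth in this order was not tested.

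Levels can be set side by side per kilobase of peak, though pull-down and methylation differ between genes. In cadmium samples the order was Hp (1530 CPM per kb), Saa1 (216), Saa2 (122), Orm2 (96.6), Lcn2 (57.7), Stat3 (53.9) and Socs3 (20.1), as means of CPM per kb. In control samples it was Hp (1591 CPM per kb), Orm2 (64.2), Stat3 (44.3), Saa1 (41.5), Lcn2 (24.0), Saa2 (20.0) and Socs3 (9.28). Among cadmium samples, each neighbouring pair from Saa1 down to Stat3 overlapped, while Hp lay above Saa1 and Socs3 below Stat3 in every sample. Among control samples the neighbours Orm2 and Stat3, Stat3 and Saa1, and Lcn2 and Saa2 overlapped, and the other neighbours did not.

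The peaks were spread along the genes. They were taken by their annotation to these genes, so a place inside the gene was largely set by that choice. Of the 19 peaks, 19 lay inside the RefSeq gene and 0 carried the symbol of another gene. Saa2 peaks were centred at 2.92%, 22.5%, 67.2% and 91.6% of the gene's length from its start, and Saa1 peaks at 27.7% and 90.8%. Lcn2 had 1 at each end, at 3.43% and 95.7%. Stat3 peaks lay close together, at 64.1% and 65.6%. Within a gene, diffSpliceDGE in edgeR called 0 of the 19 peaks as changing apart from the gene's other peaks (adjusted p below 0.05). Over all genes it called 0.0296% of 30443 peaks tested. With so few called anywhere, this test does not show that the peaks of a gene changed equally. The 4 Saa2 changes spanned 2.15 to 2.7 and the 4 Orm2 changes 0.39 to 0.81 on the log2 scale.

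**Figure D3:**
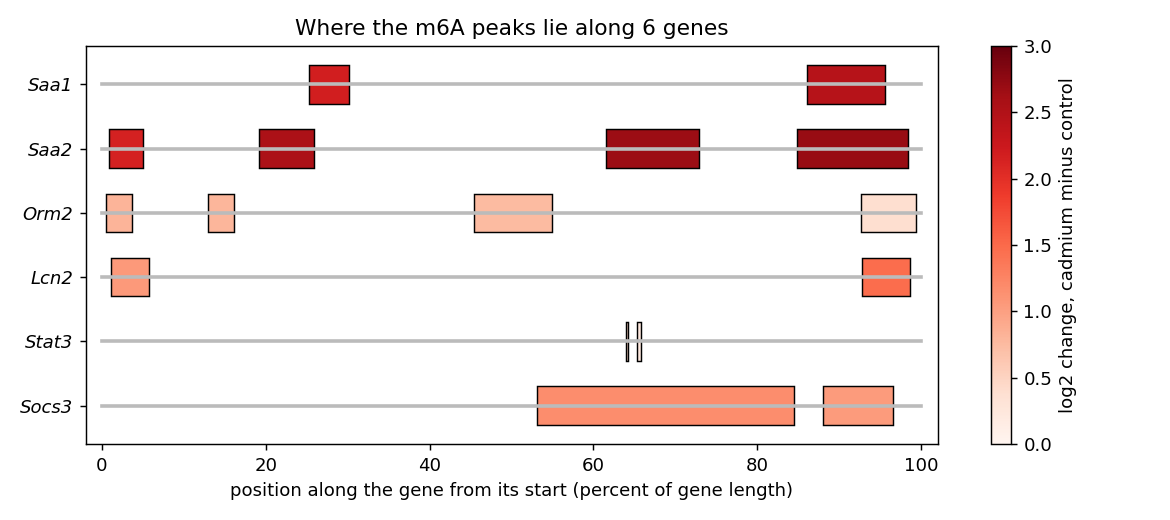
Position of the peaks (boxes) along 6 of the genes, from start to end, in percent of gene length (horizontal axis), coloured by log2 change, cadmium minus control. Saa2 has 4 boxes from 2.92% to 91.6%, all dark, and the 2 Stat3 boxes sit side by side and pale.

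The rest of the pathway was read from lists, each gene by its highest-level peak. Of all 13050 genes, 6.8% were called this way and 4.4% were called higher. Over the list genes of the pathway, 5 were called: 3 higher and 2 lower. The genes tested were 8 cytokines and receptors, 11 JAK kinases and inhibitors of STAT3 and 12 transcription factors. To these come 23 other positive and 11 negative acute phase proteins and 8 other STAT3 targets. Pooled over the lists, the called count of this fit was near the share over all genes. All 3 genes called higher were among the 23 other positive acute phase proteins. The pooled count changed with the fit, as given below.

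Ligands came first. Il6, Il1a, Tnf, Osm and Lif had no peak, and 8 of the 13 cytokines and receptors were measured, of which 0 were called higher and 1 lower. Il1b, which encodes interleukin-1 beta and was the ligand with a peak, had 1.23, 0.886 and 1.48 CPM in cadmium replicates, against 0.652, 0.299 and 0.498 CPM in control replicates. Its groups do not overlap, and the log2 change was 1.3 (SE 0.374, adjusted p = 0.0662). With the replicate as a block it was called higher, with an adjusted p of 0.0452. The gene called lower was Il6ra, the interleukin-6 receptor alpha chain, with 110, 112 and 127 CPM in cadmium replicates, against 164, 190 and 160 CPM in control replicates. Its groups do not overlap, and the log2 change was -0.56 (SE 0.141, adjusted p = 0.0407). The call was lost on leaving out any 1 of the 6 samples, with adjusted p up to 0.116. The gp130 gene Il6st (0.23, adjusted p = 0.413) and the interleukin-1 receptor accessory gene Il1rap (0.25, adjusted p = 0.402, its peak shared with another symbol) were not called. The list's median log2 change was 0.24, against 0.02 over the highest-level peaks of all genes.

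Of the 11 JAK kinases and inhibitors of STAT3, 0 were called by edgeR and 0 had an unadjusted p below 0.05. Their median was 0.18, with Jak1, the main kinase of gp130, at -0.27 (adjusted p = 0.502) and Ptpn11, the phosphatase SHP2 that docks on gp130, at -0.27 (adjusted p = 0.359). Among the 12 transcription factors of the acute phase, 0 were called higher and 1 lower. This was Cebpb, a C/EBP factor that acts with STAT3, which had 227, 360 and 329 CPM in cadmium replicates, against 505, 626 and 814 CPM in control replicates. The groups do not overlap, and the log2 change was -1.09 (SE 0.213, adjusted p = 0.0161), at a peak that another symbol shares. Leaving out cadmium replicate 3 or control replicate 3 ended the call, at an adjusted p of up to 0.0633. Cebpa (0.04, adjusted p = 0.904) and Hnf4a (-0.35, adjusted p = 0.154), a C/EBP factor and a nuclear receptor that set hepatocyte identity, were not called.

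Of 25 other positive acute phase proteins, 23 had a peak, 3 were called higher and 0 lower, and 21 had a log2 change above 0, with a median of 0.35. The related serum amyloid gene Saa3 stood first, with 7.35, 21.2 and 14.2 CPM in cadmium replicates, against 4.26, 3.84 and 3.96 CPM in control replicates. Cadmium replicate 2 is the highest and replicate 1 the lowest, as in Saa1 and Saa2. The log2 change was 1.83 (SE 0.314, adjusted p = 0.00907), and 4 of its 4 peaks were called. Saa4, the serum amyloid gene known as constitutive, had a log2 change of 0.08 and 0 of 4 peaks called. Cd14, the co-receptor for lipopolysaccharide, averaged 7.93 ± 1.29 CPM in cadmium and 4.04 ± 0.477 CPM in control samples (log2 change 0.97, SE 0.185, adjusted p = 0.0143). Fgg, the fibrinogen gamma chain, averaged 732 ± 72.4 CPM in cadmium and 472 ± 86.3 CPM in control samples (log2 change 0.63, SE 0.161, adjusted p = 0.043). Leaving out 1 sample ended the Fgg call in 5 of 6 cases, with adjusted p up to 0.188, and that of Cd14 without replicate 3 of either group, at an adjusted p of up to 0.0852.

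Negative acute phase proteins, whose synthesis falls in the acute phase, were called at 0 of 11 genes by edgeR in either direction, with 1 at an unadjusted p below 0.05 and a median of 0.04. Albumin (Alb) was at -0.05 (adjusted p = 0.869) and Apoa1, the main protein of high-density lipoprotein, at 0.04 (adjusted p = 0.894). Of 11 other STAT3 targets, 8 were measured and 0 called by edgeR, with 4 at an unadjusted p below 0.05, 4 log2 changes above 0 and a median of -0.02. An unadjusted p below 0.05, in either direction, was also found at 3 of 8 cytokines and receptors and 6 of 12 transcription factors. Among other positive acute phase proteins it was found at 10 of 23. The share of all genes at that p is not given here, so these counts have no background beside them. Junb, an AP-1 factor, was at 0.78 (adjusted p = 0.0571), and Mcl1, an inhibitor of apoptosis, at 0.03 (adjusted p = 0.93). With the replicate as a block, 3 of these targets were called, of which 2 were lower in cadmium. Myc, a growth-promoting transcription factor, had a log2 change of -1.13 (adjusted p = 0.00765 with the block, 0.111 without), and Ccnd1, the cyclin D1 gene, one of -0.87 (0.0334 with the block, 0.0638 without). Junb was higher, with an adjusted p of 0.0289 under the block. The count over all pathway lists was 11 with the block in place of 5, the others gained being Il1b, Irf1 (0.68, adjusted p = 0.0374 with the block) and Orm3 (adjusted p = 0.0425 with the block), each higher. Over all peaks the block also raised the calls, from 2325 to 3143. The log2 changes given here for Myc, Ccnd1 and Irf1 are those of the fit without the block.

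**Figure D4:**
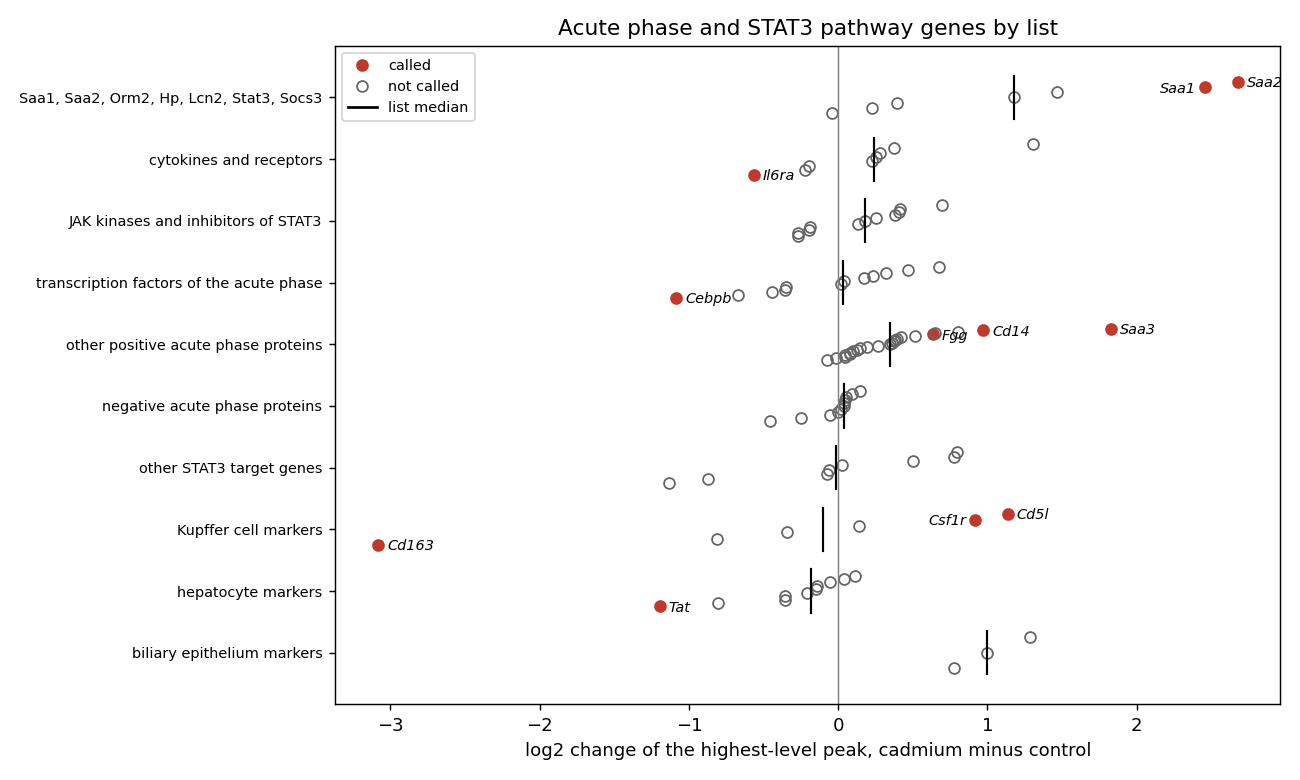
Log2 change of the highest-level peak (horizontal axis, cadmium minus control) for each measured gene by list, with filled red circles where called and a bar at the list's median. Saa1 and Saa2 lie farthest right, Saa3 leads the other positive acute phase proteins, and Il6ra and Cebpb lie left of 0 as the called genes of their lists.

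Markers of other liver cells gave mixed values. Of 9 Kupffer cell markers, 6 had a peak, 2 were called higher and 1 lower, with a median log2 change of -0.10, and their summed level was 128 to 162 CPM in cadmium and 92.0 to 124 CPM in control samples. Adgre1, Cd68 and Timd4 had no peak. Cd5l (1.14, adjusted p = 0.0158) and Csf1r (0.92, adjusted p = 0.0199) were higher at their highest-level peaks. Cd5l had 2 of 5 peaks called and 5 above 0. Csf1r had 1 of 3 peaks called and 2 above 0, with the lowest at -0.21. Cd163, the macrophage receptor that takes up haptoglobin bound to haemoglobin, averaged 0.407 ± 0.0371 CPM in cadmium and 3.46 ± 0.0248 CPM in control samples (log2 change -3.08, SE 0.247, adjusted p = 0.000832). Both Cd5l and Csf1r lost their calls without cadmium replicate 3 or control replicate 3, and Csf1r also without cadmium replicate 2. Of 10 hepatocyte markers, 1 was called, the tyrosine aminotransferase gene Tat, which was lower (-1.20, adjusted p = 0.00725). Apob, the main protein of very-low-density lipoprotein, was at -0.15. Biliary markers had peaks at 3 of 6 genes, with 0 called by edgeR, 2 at an unadjusted p below 0.05, and summed levels of 18.7 to 66.7 CPM in cadmium and 22.4 to 29.6 CPM in control samples. At that unadjusted p there were also 4 of 6 Kupffer cell and 2 of 10 hepatocyte markers. Spp1 (0.77, adjusted p = 0.248, its peak shared with another symbol) and Sox9 (1.29, adjusted p = 0.0682) were not called, and Krt19, Krt7 and Cldn4 had no peak. Macrophages also make Saa3 and Cd14. The part of these cell types in the values of Saa3, Cd14 and the other genes was not tested.

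The genes whose level ran most like the Saa genes over the 6 samples were taken by Pearson's r across 8381 candidates, as a description without a test. For Saa1 they were Ranbp10 (r = 0.997) and the shared peak of Klhdc7a and Mir2139 (r = 0.996), and 125 candidates had r above 0.95. For Saa2 they were Plvap (r = 0.994) and the same Klhdc7a peak (r = 0.994), with 150 above 0.95. The 6 points share libraries and the group difference, which enters every such r. The Klhdc7a peak averaged 169 CPM in cadmium and 84.3 CPM in control samples.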

How the data were processed

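RNA of 6 immunoprecipitated liver samples was used, 3 cadmium and 3 control. Per the submitters' processing notes, the build was mm10 and the tools were MACS2 2.1.1, STAR 2.7.1a, DESeq2 4.1.0 (so written), cutadapt 1.1.8 and SAMtools 1.3.1. Not given in the sources used here are their settings, the strand used in counting and whether peaks were called per sample. The deposited table holds raw counts per peak in 6 columns, read as immunoprecipitated libraries because the rows are m6A peaks, which is an assumption. Each peak also carries the authors' own log2 change and p-values, raw and adjusted, which served only to compare calls.

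Peak counts went into edgeR 4.0.16 (R 4.3.3): TMM scaling, filterByExpr (minimum count 10, minimum total 15, 37088 of 37118 peaks kept), the quasi-likelihood F test and Benjamini-Hochberg adjustment over all tested peaks. The SE is the log2 change over the square root of F. Log2 changes are cadmium minus control. Gene sums were fitted with their own library sizes and TMM factors, from annotated peaks only. The test was checked on simulated counts. The biological coefficient of variation was 19.4%. Alternatives were RLE factors, no or a stricter filter, leaving out the Gm12895 and Gm12896 peaks, DESeq2 1.42.0, a replicate block and leaving out each sample.

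The members and gene lists were chosen with earlier results of these data known. All peaks of the 7 genes are described. In each list the text names up to 4 called genes with the smallest p and, where fewer than 2 were called, the 2 uncalled genes with the highest level. It also names the 3 genes most correlated with each member that had a called peak. Saa4, Orm1, Orm3, Il1b, Irf1, Myc, Ccnd1, Fga and Fgb were added outside this rule, after their values were seen. The labels call replicates 1, 2 and 3 batches, so equal numbers pair samples. Deviations from group means had correlations of 0.146, 0.214 and 0.174 within batches and of -0.173 to 0.0163 across them. Deviations sum to 0 within a group, so positive values within batches force lower ones across them. The values across batches are therefore no separate evidence of pairing. Replicates differed beyond sampling noise (chi-square per degree of freedom 31.9 to 161). Promoters came from the RefSeq table of GRCm38.p6, which held 6 of the 7 genes. No promoter of Hp is shown. Exon positions and the m6A motif were not analysed here.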

Additional observations from a re-analysis of the deposited data

How the results depend on the processing

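The 6 Saa peaks kept their direction and their call under every alternative run, with log2 changes of 1.94 to 3.02. The count of called peaks among the 19 was 6, against 9 with DESeq2, 8 with the replicate block and 6 to 9 on leaving out 1 sample. Called genes by summed counts were 2, and 2 to 4 on leaving out 1 sample, 3 with DESeq2 and 3 with the block. Over all peaks, 2325 were called, against 3683 with DESeq2, 3143 with the block and 543 to 1977 on leaving out 1 sample (543 without cadmium replicate 3, 1079 without control replicate 3). The authors' deposited table has 3683 peaks with an adjusted p below 0.05, 9 of them among the 19. Pathway list genes called were 5, against 10 with DESeq2, 11 with the replicate block and 10 when any peak of a gene counted. On leaving out 1 sample they were 1 to 9, with 1 without cadmium replicate 3 or control replicate 3. Calls over all peaks also rose with DESeq2 and the block. The share of all genes under each of these settings is not given here, so these counts have no background beside them. The Hp peaks, at log2 changes near 0, changed sign on leaving out 1 sample, over -0.16 to 0.070 at peak 1, -0.11 to 0.15 at peak 2, -0.11 to 0.11 at peak 3 and -0.15 to 0.058 over the gene. Leaving out 1 sample gave log2 changes of 1.14 to 1.94 at Lcn2 peak 1, 0.67 to 1.5 at Socs3 peak 1 and 0.79 to 1.51 at Socs3 peak 2. Where a tool changed a count, the cause was not tested. The replicate block changed the call of no other member peak than those of Lcn2. With 3 samples a group, the 95% intervals of uncalled genes were wide, 1.16-fold to 4.05-fold for Socs3 and 1.18-fold to 4.94-fold for Lcn2.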

Other observations

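Some acute phase and STAT3 genes had a called peak that was not the gene's highest in level, and these were picked out after their values were seen. Irf1, a transcription factor induced by interferon and STAT signals, had 2 such peaks, at log2 changes of 0.75 (SE 0.196, adjusted p = 0.0487) and 0.77 (SE 0.202, adjusted p = 0.0482), the first at a peak shared with another symbol. Pim1, a kinase gene activated by STAT3, had 1 with 4.84 ± 0.502 CPM in cadmium and 2.24 ± 0.873 CPM in control samples (SD, n = 3), a log2 change of 1.11 with an adjusted p of 0.0404. Steap4, a metalloreductase of the acute phase, had 57.6 ± 8.89 CPM in cadmium and 36.7 ± 2.82 CPM in control samples at its called peak (0.65, adjusted p = 0.039). Il1rap, with 18.3 ± 2.31 CPM in cadmium and 10.5 ± 1.95 CPM in control samples, was also higher at such a peak (0.80, adjusted p = 0.0265). The STAT3 target Ccnd1 was lower, with 20.3 ± 6.05 CPM in cadmium and 37.6 ± 7.23 CPM in control samples (-0.89, adjusted p = 0.0477), at a peak shared with another symbol. A second peak of Il6ra was lower in cadmium, with 4.42 ± 0.514 CPM in cadmium and 6.86 ± 0.138 CPM in control samples (-0.63, adjusted p = 0.0467).

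The 3 fibrinogen chains lay on the same side at every peak: 8 of 8 peaks of Fgg, 5 of 5 of Fga and 8 of 8 of Fgb had a log2 change above 0, at 0.35 to 0.65, 0.30 to 0.41 and 0.26 to 0.39, but only Fgg had called peaks (3). Cd163 had 6 of 7 peaks called lower, with log2 changes down to -4.05, and the remaining peak was at 0.27.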
